A study of Mus musculus with 12 samples.

Results

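The 39 genes described here encode proteins of the synaptic vesicle and of the active zone, the stretch of presynaptic membrane where vesicles fuse. They were found by gene symbol, through the probe sets listed for each symbol. Of the 39 genes, 37 had at least 1 probe set listed with a single gene, out of 17097 genes so represented on the array. The other two were Sv2c, a vesicle glycoprotein with no probe set in the annotation used, and Unc13a, a priming factor whose probe set is listed with several genes, and both were not analysed here. All 37 passed the filter on low values, as did 13073 genes in total. The 37 genes had 89 probe sets, of which 84 passed the same filter.

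At a synapse, neurotransmitter is loaded into vesicles by transporters in the vesicle membrane. Vesicles are held near the release site by synapsins, Rab3 and the scaffold of the active zone, are primed by Munc13 and RIM proteins, and fuse when SNARE proteins on vesicle and plasma membrane zip together. Synaptotagmins trigger fusion when calcium enters, complexins clamp and assist it, the ATPase NSF takes spent SNARE complexes apart, and dynamin, amphiphysin, endophilin and synaptojanin recover the membrane by endocytosis. Hepatocytes form no synapses, so liver serves as the comparison tissue for each probe set.

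RNA came from male BALB/c mice aged 10 weeks, from brain or from liver, and was hybridised to Affymetrix mouse perfect-match arrays, 1 array for each of 12 conditions. Each tissue was either formalin-fixed and paraffin-embedded (FFPE) or kept in RNAlater (named FF, fresh-frozen, in the labels). The times were 0 h, directly after death, 3 h at room temperature and 18 h at 4 °C. The groups were thus FFPE brain, FF brain, FFPE liver and FF liver, each with 3 arrays, 1 per time. FFPE pieces spent 24 h in 10% formalin and 7 d as blocks, were cut at 10 µm and were labelled with a whole-transcript kit. FF RNA was labelled with a kit that primes at the 3' end, so preservation and labelling always changed together, as did time and storage temperature. The labels name no brain region, no number of animals and no shared animals, and no condition was repeated. P-values therefore measure only the spread between arrays, which may be technical. Values are log2 intensities of a probe set, and levels of different probe sets are not comparable.

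The labelled tissues carried markers of neurons and of hepatocytes. All 12 tested genes of neuron structure were higher in brain than in liver in both preservations, and all 11 tested hepatocyte genes were lower. Over all genes tested, 29.0% were higher in FFPE brain than in FFPE liver and 34.5% lower. In FF tissue these shares were 37.5% and 36.5%. The summed hepatocyte level, on the log2 scale, was 9.43, 8.52 and 8.57 in FFPE brain and 11.33, 8.69 and 8.42 in FF brain at 0, 3 and 18 h, so that the FF brain array at 0 h stood above the other 5 brain arrays. The 3' control probe set of Gapdh exceeded the 5' one, on the log2 scale, by 1.22 to 1.25 in FFPE brain and -0.02 to 0.05 in FF brain, while for Actb the same difference was -0.12 to 0.05 in FFPE brain and 1.21 to 1.32 in FF brain. The median probe set stood at 4.80 to 4.89 in FFPE arrays and 4.65 to 4.68 in FF arrays, so the scales were not fully matched. Quantile normalization of all arrays is used below wherever it turns a direction.

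Nearly all of the vesicle and active zone genes were far higher in brain than in liver, whichever way the tissue was kept. Of the 37 genes, 36 reached the array median in all 6 brain arrays and 22 did so in at least 3 liver arrays. A gene could thus pass the filter on low values through brain alone, so the counts that follow describe the set and are no independent test. In FFPE tissue all 37 genes were higher in brain (limma, adjusted p under 0.05), where 29.0% of all genes tested were. In FF tissue 35 were higher, where 37.5% of all genes were, and 1 was lower, where 36.5% of all genes were. The median difference was 3.66 in FFPE and 4.28 in FF on the log2 scale, and the median of all genes was -0.04 in both. Without the FF brain array at 0 h the FF counts were also 35 and 1. In whole tissue, fewer cells of a type and less RNA per cell cannot be told apart.

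Snap25, the plasma membrane SNARE that contributes a pair of helices to the fusion complex, gave the largest gap. Its level was 12.55, 12.55 and 12.63 in FFPE brain at 0, 3 and 18 h, against 3.40, 3.38 and 3.42 in FFPE liver. In FF tissue it was 11.93, 12.11 and 12.14 in brain, against 3.25, 3.31 and 3.27 in liver. Brain and liver arrays were separated by 9.18 ± 0.11 in FFPE (limma estimate and SE, adjusted p = 2.4e-14) and by 8.78 ± 0.11 in FF (adjusted p = 4.12e-14), and Snap25 sat near the bottom of the scale in liver. Snap91, the clathrin assembly protein AP180, had 9.32, 9.44 and 9.54 in FFPE brain, against 3.32, 3.44 and 3.40 in FFPE liver. Its difference was 6.05 ± 0.11 in FFPE and 6.82 ± 0.11 in FF (adjusted p = 1.03e-13 and 4.45e-14). Syp, the vesicle membrane protein synaptophysin, differed by 6.22 ± 0.12 in FFPE and 4.93 ± 0.12 in FF (adjusted p = 1.11e-13 and 4.28e-13).

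A few genes stood much closer to liver. Syn3, the least abundant of the synapsins in adult brain, had 6.70, 6.70 and 6.61 in FFPE brain, against 6.39, 6.19 and 6.44 in FFPE liver. In FF tissue it had 4.19, 4.54 and 4.36 in brain, against 4.90, 4.92 and 4.98 in liver. Its difference was thus 0.33 ± 0.12 in FFPE (adjusted p = 0.0261) and -0.57 ± 0.12 in FF (adjusted p = 0.000705), and the FFPE call was lost when 1 of 3 arrays was left out, at 0.23 without FFPE brain at 0 h, 0.36 without FFPE brain at 18 h and 0.26 without FFPE liver at 3 h. The other two probe sets of Syn3 were higher in FF brain than in FF liver, by 1.06 ± 0.11 and 2.21 ± 0.14 (adjusted p = 2.72e-06 and 1.14e-08), so the single lower call in FF tissue rests on the main probe set. Bsn, which encodes the giant active zone scaffold bassoon, had 10.06, 10.19 and 10.45 in FFPE brain, against 5.60, 5.54 and 5.45 in FFPE liver, but 5.59, 5.06 and 5.04 in FF brain, against 5.34, 5.40 and 4.86 in FF liver. Its main probe set separated the tissues by 4.70 ± 0.16 in FFPE (adjusted p = 1.93e-11) and by 0.03 ± 0.16 in FF (adjusted p = 0.875), where the arrays overlapped. Unc13c, a Munc13 priming factor best known from cerebellar granule cells, went the other way, with 0.59 ± 0.16 in FFPE (adjusted p = 0.00691) and 4.20 ± 0.16 in FF (adjusted p = 4.46e-11). The small FFPE difference of Unc13c missed the threshold without FFPE brain at 3 h, FFPE liver at 0 h or FFPE liver at 3 h, where it was 0.50, 0.45 and 0.435. These Unc13c values are of the main probe set. Another separated brain from liver by 0.34 in FFPE and 3.33 in FF, and a further one by 1.29 in FFPE and 1.14 in FF.

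**Figure D1:**
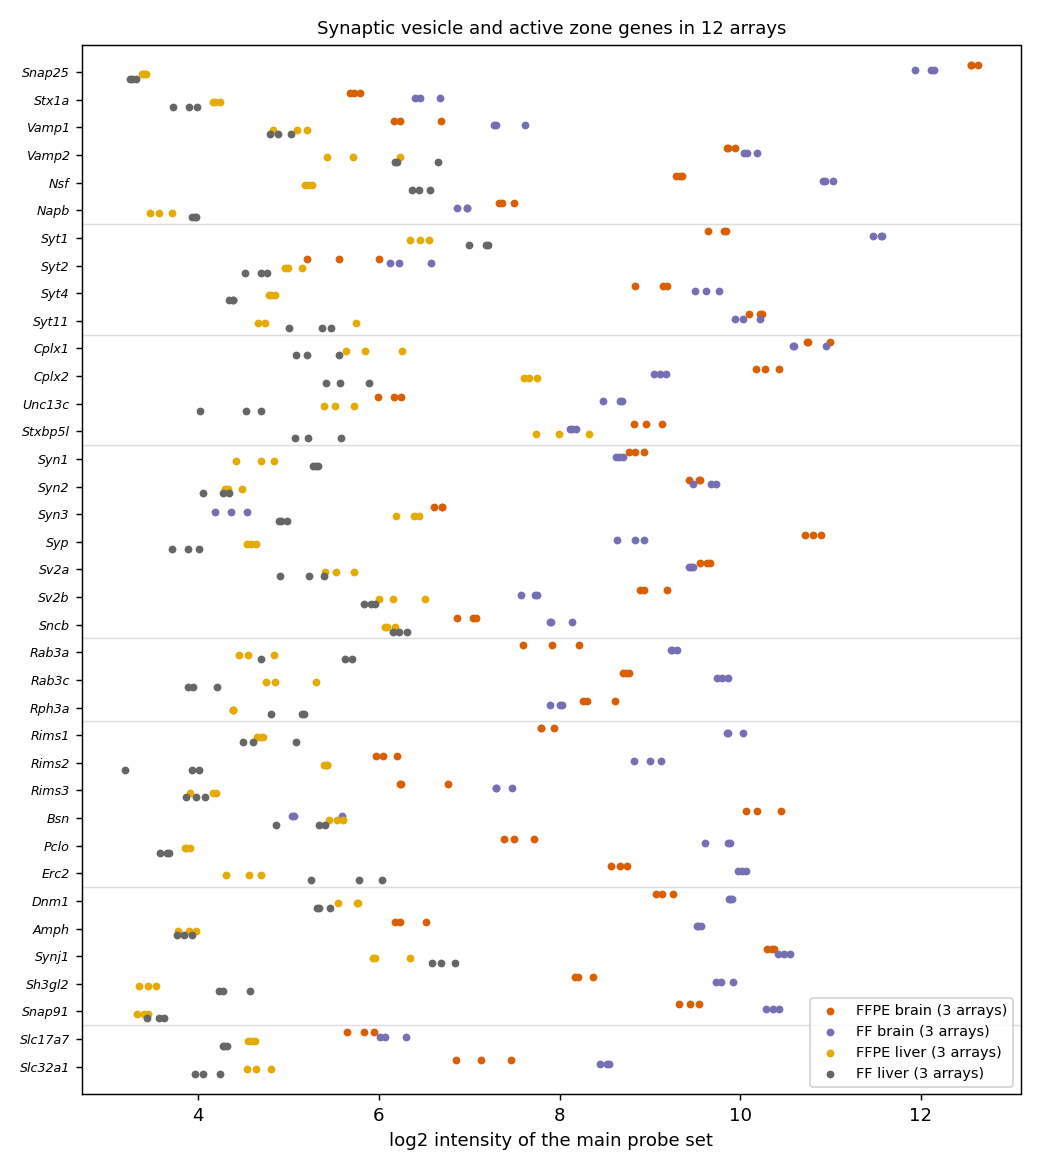
Log2 intensity of the main probe set of 37 vesicle and active zone genes (rows, grouped by role) in 12 arrays, with FFPE brain, FF brain, FFPE liver and FF liver in separate colours and 1 point per array. Brain points lie to the right of liver points for most genes, Bsn in FF brain lies among the liver points, and Snap25 in brain is the farthest right, at 11.93 to 12.63.

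Promoters were looked at because these genes shared a high level in brain and a low level in liver. Of the 39 genes, 34 had a promoter in the RefSeq table used (build GRCm38.p6), with 44 promoters of 300 bases, from 250 before to 50 after the start. Letters of the left part of the binding site of REST, a repressor that keeps neuronal genes off in other cell types, were searched as TTCAGCACC on both strands. They occurred in 0.371% of 32851 promoters of that length, and among these genes in Syn1 and Unc13a. The cyclic AMP response element was searched as TGACGTCA, a palindrome that reads alike on both strands and does not overlap the first motif. It occurred in 1.79% of the promoters, and among these genes in Syn1 and Sh3gl2. Matching letters describe the sequence only, and their absence in a window of this size says nothing of either factor. The promoter of Syn1, which codes for synapsin I, is on the minus strand at chrX:20920869-20921168. That of Sh3gl2, which codes for endophilin A1, is on the plus strand at chr4:85205206-85205505. Both are shown because they hold the matches, 5' to 3', with the motifs in capitals; in Syn1 the REST letters begin at base 19 and the response element at base 92, and in Sh3gl2 the response element begins at base 214.
Syn1: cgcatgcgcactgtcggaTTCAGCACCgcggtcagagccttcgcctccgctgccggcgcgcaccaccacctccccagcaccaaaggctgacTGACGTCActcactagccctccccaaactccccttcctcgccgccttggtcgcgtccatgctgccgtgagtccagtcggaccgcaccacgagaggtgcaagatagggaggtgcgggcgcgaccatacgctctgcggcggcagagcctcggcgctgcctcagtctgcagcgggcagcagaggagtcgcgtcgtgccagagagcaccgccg
Sh3gl2: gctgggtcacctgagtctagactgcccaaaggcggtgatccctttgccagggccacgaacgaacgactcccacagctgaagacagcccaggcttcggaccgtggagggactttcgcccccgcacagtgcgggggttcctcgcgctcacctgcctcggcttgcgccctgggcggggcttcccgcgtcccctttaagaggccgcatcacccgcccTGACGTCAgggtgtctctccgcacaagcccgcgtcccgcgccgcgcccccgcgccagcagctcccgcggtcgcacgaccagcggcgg
Syn1 itself had 8.83, 8.77 and 8.94 in FFPE brain, against 4.42, 4.69 and 4.84 in FFPE liver, and Sh3gl2 had 8.20, 8.17 and 8.37 in FFPE brain, against 3.44, 3.53 and 3.35 in FFPE liver. The 2 genes were higher in FFPE brain than in FFPE liver by 4.20 ± 0.12 and 4.81 ± 0.11 (adjusted p = 2.27e-12 and 3.76e-13).

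FFPE and FF brain differed for most of these genes, in both directions. By the main probe set, 9 genes were higher and 21 were lower in FFPE brain, and 7 did not pass the test. Preservation moved nearly the whole array: 81.8% of all genes tested passed, 28.4% higher and 53.4% lower, so a high count is not particular to these genes. Their median difference was -0.72, against -0.42 over all genes. After quantile normalization, which brought the all-gene median to -0.11, the median of these genes was -0.09, with 15 higher and 14 lower. The 9 higher genes were also higher then, and 14 of the 21 lower genes were also lower. Measured against the all-gene median, 17 of the 37 genes lay above and 20 below with the deposited values, and 19 above and 18 below after quantile normalization.

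Past 2-fold, 5 genes were higher in FFPE brain, where 12.1% of all genes were, and 13 were lower, where 34.0% of all genes were. All 3 FFPE brain arrays lay above all 3 FF brain arrays for 11 genes and below them for 23, where 30.0% and 55.0% of all genes did so.

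By the main probe sets the active zone scaffold held the widest spread, which rests on 1 probe set of Bsn. Of its 6 genes, 5 were lower in FFPE brain and 1, Bsn, was higher, where 53.4% and 28.4% of all genes were. Bsn differed by 5.003 ± 0.16 (adjusted p = 1.36e-10), the largest preservation difference among the 37 main probe sets. That value belongs to the probe set brightest over all arrays, and the one brightest in brain differed by 0.28. Rims2, a RIM protein that tethers vesicles and calcium channels, had 5.97, 6.05 and 6.20 in FFPE brain, against 8.82, 9.12 and 9.0 in FF brain (-2.91 ± 0.16, adjusted p = 2.64e-09). Pclo, which codes for piccolo, a scaffold related to bassoon, had 7.38, 7.5 and 7.72 in FFPE brain, against 9.86, 9.61 and 9.89 in FF brain (-2.25 ± 0.12, adjusted p = 2.04e-09). The arrays of Rims2 and of Pclo did not overlap. Rims1 fell by 2.07 ± 0.13 (0.52 on the probe set brightest in brain) and Erc2, an ELKS-family scaffold, fell by 1.36 ± 0.16 in FFPE brain (adjusted p = 1.25e-08 and 4.47e-06). Rims3 fell by 0.95 ± 0.12 (adjusted p = 6.6e-06), a call that was lost after quantile normalization (-0.18, adjusted p = 0.216).

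Of the 4 SNARE regulators measured, 2 were higher and 1 was lower in FFPE brain, where 28.4% and 53.4% of all genes were. Unc13c had 5.99, 6.17 and 6.24 in FFPE brain, against 8.69, 8.48 and 8.67 in FF brain (-2.48 ± 0.16, adjusted p = 1.67e-08). Cplx2, one of the complexins, had 10.27, 10.17 and 10.43 in FFPE brain, against 9.18, 9.04 and 9.11 in FF brain (1.18 ± 0.12, adjusted p = 1.3e-06). The FFPE arrays of Unc13c were all below the FF arrays and those of Cplx2 all above. Stxbp5l, a tomosyn that holds back SNARE assembly, was higher in FFPE brain by 0.82 ± 0.12 (adjusted p = 2.04e-05). Both higher calls are of the main probe set. Another probe set of Stxbp5l was at -1.23 ± 0.17 and another of Cplx2 at -1.55 ± 0.15 (limma, adjusted p = 2.27e-05 and 1.08e-06). The remaining probe sets of the same genes were at 1.23 and 0.09. The other Unc13c probe sets were at -3.24 ± 0.12 and 0.60 ± 0.20 (limma, adjusted p = 3.83e-10 and 0.0167), so they were called in opposite directions. Cplx1 differed by 0.12 ± 0.14 (adjusted p = 0.45) and passed the test only after quantile normalization (0.49, adjusted p = 0.00902).

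Of the 5 endocytosis genes, 4 were lower in FFPE brain and none was higher, where 53.4% and 28.4% of all genes were. Amph, the membrane-bending protein amphiphysin, had 6.18, 6.52 and 6.23 in FFPE brain, against 9.52, 9.57 and 9.53 in FF brain (-3.23 ± 0.11, adjusted p = 2.12e-10), the largest fall among the 37. Sh3gl2 fell by 1.57 ± 0.11, Snap91 by 0.93 ± 0.11 and Dnm1, which codes for the neuronal dynamin that cuts vesicles free, by 0.74 ± 0.11 (adjusted p = 2.98e-08, 5.89e-06 and 4.65e-05). The Dnm1 call was lost after quantile normalization (-0.12, adjusted p = 0.336). Synj1, the lipid phosphatase synaptojanin, differed by -0.14 ± 0.11 on its main probe set (adjusted p = 0.245), and quantile normalization turned that sign (0.31, adjusted p = 0.0323). The other tested Synj1 probe sets were lower in FFPE brain, at -2.29 ± 0.14 and -2.16 ± 0.15 (limma, adjusted p = 1.17e-08 and 5.93e-08).

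Among the SNARE proteins and the factors that take SNARE complexes apart, 2 of 6 genes were higher and 3 lower (28.4% and 53.4% of all genes). Nsf, the ATPase that separates spent SNARE complexes, had 9.33, 9.36 and 9.29 in FFPE brain, against 10.94, 11.03 and 10.92 in FF brain (-1.64 ± 0.11, adjusted p = 2.19e-08). The other tested Nsf probe set was at -0.21 ± 0.12 (limma, adjusted p = 0.115), and it separated brain from liver by 4.19 in FFPE and 3.55 in FF. Vamp1, a vesicle SNARE, fell by 1.03 ± 0.11 and Stx1a, its partner on the plasma membrane, by 0.78 ± 0.11 (adjusted p = 1.63e-06 and 2.64e-05), and the Vamp1 call was lost after quantile normalization (-0.27, adjusted p = 0.0505). Snap25 was higher in FFPE brain by 0.52 ± 0.11 and Napb, the brain form of the NSF attachment protein, by 0.46 ± 0.11 (adjusted p = 0.000686 and 0.00189). Vamp2, the main vesicle SNARE of forebrain synapses, differed by -0.21 ± 0.19 on its main probe set (adjusted p = 0.298), with a sign that turned after quantile normalization (0.31).

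Of the 4 synaptotagmins, 3 were lower and none higher, where 53.4% and 28.4% of all genes were. Syt1, the fast calcium sensor of most forebrain synapses, had 9.82, 9.84 and 9.64 in FFPE brain, against 11.57, 11.47 and 11.56 in FF brain (-1.77 ± 0.11, adjusted p = 1.2e-08). Syt2, the fast sensor of many hindbrain synapses, fell by 0.72 ± 0.13 and Syt4 fell by 0.57 ± 0.12 (adjusted p = 0.000163 and 0.000692). Neither passed after quantile normalization, where Syt2 was at -0.34 (adjusted p = 0.0532) and Syt4 changed sign (0.11, adjusted p = 0.426). Syt11, a synaptotagmin that does not bind calcium, differed by 0.12 ± 0.23 (adjusted p = 0.621) and passed the test after quantile normalization (0.61, adjusted p = 0.0478).

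Of the 7 vesicle cluster and membrane proteins, 3 were higher and 1 was lower, where 28.4% and 53.4% of all genes were. Syn3 was higher in FFPE brain by 2.31 ± 0.12 (adjusted p = 1.88e-09). Syp had 10.72, 10.81 and 10.89 in FFPE brain, against 8.84, 8.93 and 8.64 in FF brain (2.00 ± 0.12, adjusted p = 6.92e-09), and its arrays did not overlap. Sv2b, a vesicle glycoprotein, was higher by 1.32 ± 0.12, and Sncb, beta-synuclein, fell by 0.99 ± 0.11 (adjusted p = 4.13e-07 and 3.1e-06), the second call being lost after quantile normalization (-0.09, adjusted p = 0.492). Syn1, Sv2a and Syn2 did not pass the test, at 0.18 ± 0.12, 0.16 ± 0.12 and -0.12 ± 0.12, and all 3 were called higher after quantile normalization, at 1.03, 0.82 and 0.52. For Syn2 this holds for the main probe set only. Other Syn2 probe sets were lower in FFPE brain, at -2.73 ± 0.14 and -2.61 ± 0.17 (limma, adjusted p = 2.99e-09 and 2.01e-08), and a further one was at -0.07 ± 0.12.

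Of the Rab3 group, Rab3a, the main vesicle GTPase of the family, had 7.92, 7.59 and 8.22 in FFPE brain, against 9.23, 9.30 and 9.25 in FF brain (-1.35 ± 0.22, adjusted p = 8.21e-05), and the FFPE arrays all lay below. Rab3c fell by 1.06 ± 0.14, and the Rab3 effector rabphilin, Rph3a, was higher by 0.42 ± 0.12 (adjusted p = 1.41e-05 and 0.00646). The Rph3a call was lost at 0.335 without either 18 h brain array. Slc32a1, which loads GABA and glycine, had 6.85, 7.13 and 7.46 in FFPE brain, against 8.55, 8.52 and 8.45 in FF brain (-1.36 ± 0.15, adjusted p = 2e-06). Slc17a7, the vesicular glutamate transporter of cortical neurons, had 5.65, 5.83 and 5.95 in FFPE brain, against 6.01, 6.07 and 6.3 in FF brain (-0.32 ± 0.11, adjusted p = 0.0162). Its arrays did not overlap, yet the call was lost without any 1 of the 0 h and 18 h brain arrays (-0.29 to -0.30), and the sign turned after quantile normalization (0.09).

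Different probe sets of the same gene often disagreed on the direction of the preservation difference. Over the 84 tested probe sets, 27 were higher in FFPE brain and 44 lower, where 34.5% and 47.3% of all probe sets tested were. Of the 27 genes with at least 2 tested probe sets, 15 had one called higher and another called lower, where 41.5% of the 4953 such genes on the array did. The median gap between a gene's highest and lowest probe set was 2.50 on the log2 scale for these genes and 1.56 over all such genes. Probe sets are placed at different parts of a transcript or on different transcript forms, and their positions were not analysed here.

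Vamp2 showed the widest gap. Its main probe set had 9.85, 9.86 and 9.94 in FFPE brain, against 10.18, 10.07 and 10.04 in FF brain, while its other probe set had 10.81, 10.80 and 10.92 in FFPE brain, against 4.53, 5.03 and 5.01 in FF brain. The second probe set was thus higher in FFPE brain by 5.99 ± 0.13 (adjusted p = 3.34e-11), the largest preservation difference among the 84. In liver its means were 6.02 in FFPE and 3.94 in FF, so that brain exceeded liver by 4.82 in FFPE and by 0.91 in FF.

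Syt1 behaved alike, with a main probe set that was lower in FFPE brain and 2 further probe sets that were higher by 4.06 ± 0.11 and 4.21 ± 0.11 (adjusted p = 7.09e-11 and 7.23e-11). The first of them had 9.90, 9.96 and 9.87 in FFPE brain, against 5.87, 5.87 and 5.81 in FF brain. Dnm1 had a second probe set that was higher by 3.59 ± 0.11, with 8.77, 8.57 and 8.84 in FFPE brain, against 5.08, 5.08 and 5.24 in FF brain. For Rab3c, Slc32a1 and Sh3gl2, whose main probe sets fell, another probe set was higher in FFPE brain by 3.72 ± 0.14, 2.90 ± 0.11 and 2.53 ± 0.13 (adjusted p = 4.16e-10, 5.99e-10 and 3.61e-09). Syp and Syn3 went the other way, since their main probe sets were higher while another fell by 2.02 ± 0.15 and 2.66 ± 0.14 (adjusted p = 1e-07 and 3.52e-09). Not all of these probe sets read higher in brain than in liver. Brain minus liver was -1.20 in FF and 0.05 in FFPE for that Syp probe set, whose FFPE minus FF difference in liver was -3.27. For the rising Slc32a1 probe set these values were -0.90, 0.68 and 1.32.

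The active zone scaffold was again apart, with no gene whose probe sets were called in opposite directions. All 3 tested probe sets of Rims2 were lower in FFPE brain, by -2.91, -2.68 and -1.73, as were all 3 of Pclo, by -2.25, -2.01 and -1.33, and both of Rims1 and of Erc2. All 3 of Bsn were higher, by 5.003, 2.25 and 0.28. The second of these did not separate brain from liver in FF (-0.01 ± 0.13, limma, adjusted p = 0.949) and did so by 0.42 in FFPE. It was also higher in FFPE liver than in FF liver, by 1.82. The third of these (0.28 ± 0.12, adjusted p = 0.0418) had 7.90, 8.14 and 8.15 in FFPE brain, against 7.79, 7.66 and 7.91 in FF brain, and it separated brain from liver in both preservations, by 4.54 in FFPE and 3.27 in FF. Whether the scaffold differs from the other roles in this was not tested.

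**Figure D2:**
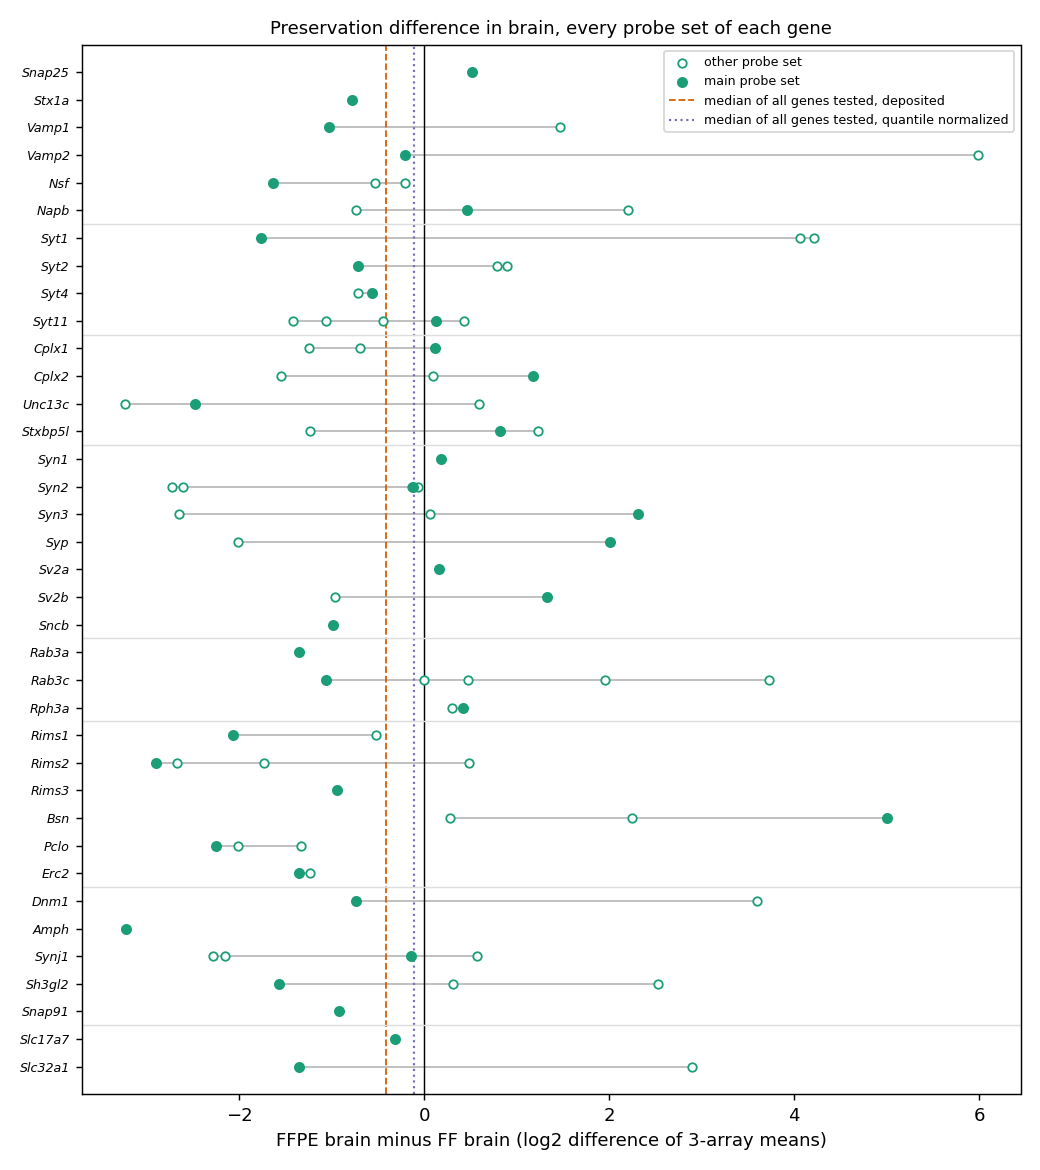
Difference between FFPE brain and FF brain (log2, means of 3 arrays each) for all 89 probe sets of 37 genes, with the main probe set filled, the others open and a line joining probe sets of a gene; dashed and dotted lines mark the all-gene medians with deposited (-0.42) and quantile normalized (-0.11) values. Vamp2, Syt1 and Dnm1 span zero by the main probe set and another at 5.99, 4.21 and 3.59, while Rims1, Pclo and Erc2 lie wholly below zero.

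The probe sets also showed how well each preservation told brain from liver. At least 2-fold higher in brain and past the test in both preservations were 64 of the 84 probe sets (76.2%), and 11.3% of all probe sets tested. A further 9 passed in FF alone (10.3% of all probe sets did so) and 3 in FFPE alone (2.71% of all). The 9 belonged to Unc13c, with 2 probe sets, and to Sncb, Rims2, Syn3, Syt2, Erc2, Stxbp5l and Pclo. The 3 belonged to Vamp2, Rab3c and Bsn. For all 12, the tissue difference itself differed between preservations (limma interaction, adjusted p under 0.05). They were picked for passing in a single preservation, which favours such a call. Over the whole array, 2818 of 3050 probe sets passing in FF alone and 689 of 806 in FFPE alone had it too. The interaction calls of the 12 are therefore not particular to these genes. The Rab3c probe set had 6.56, 6.92 and 6.94 in FFPE brain and 3.27, 2.95 and 3.03 in FF brain, where liver means were 2.98 in FFPE and 2.90 in FF.

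**Figure D3:**
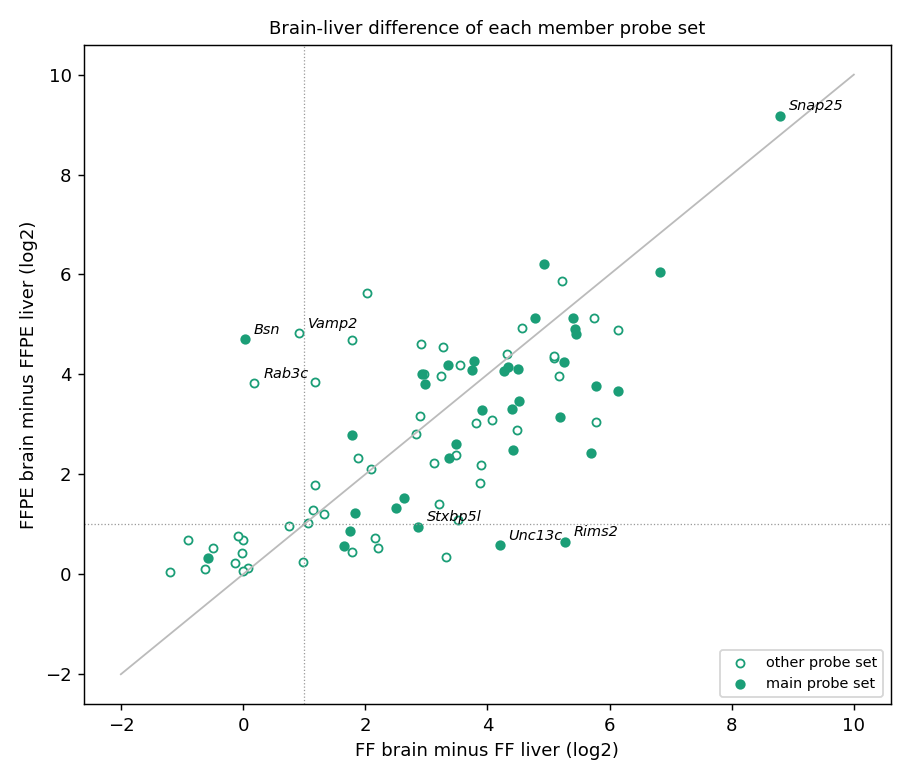
Brain minus liver difference in FFPE tissue (vertical axis, log2) against that in FF tissue (horizontal axis, log2) for each member probe set, with main probe sets filled; the dotted lines mark 2-fold and the grey line equal differences. Most points lie above 2-fold on both axes, Snap25 is highest at 9.18 in FFPE and 8.78 in FF, and Bsn (4.70 in FFPE, 0.03 in FF) and Rims2 (0.66 in FFPE, 5.27 in FF) lie far from the line.

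Preservation differences were also measured in liver, where 3 or more arrays placed 22 of the 37 genes no lower than their median. There, 16 of the 37 main probe sets were higher in FFPE liver than in FF liver, where 27.8% of all genes were, and 10 were lower, where 43.5% of all genes were (71.2% in either direction). Stxbp5l had 7.74, 7.99 and 8.33 in FFPE liver, against 5.07, 5.22 and 5.58 in FF liver (2.73 ± 0.12, adjusted p = 2.74e-09), a larger difference than its 0.82 in brain. The main probe sets of Cplx2 and Rims2 were higher in FFPE liver by 2.05 ± 0.12 and 1.71 ± 0.16 (adjusted p = 3.31e-08 and 8.06e-07). The other probe sets of Cplx2 were lower there, at -2.59 and -0.63. The other tested probe sets of Rims2 were at -0.62 and -0.02. The main Rims2 probe set stood at 4.01, 3.93 and 3.19 in FF liver, below the array medians of 4.65 to 4.67.

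By the main probe set, the preservation difference in brain itself differed from that in liver for 31 of the 37 genes, where 54.9% of all genes did. For 9 genes it was higher in brain (18.5% of all genes) and for 22 lower (36.4% of all genes), and after quantile normalization it was higher for 12 and lower for 12. The largest were Bsn at 4.67 ± 0.23, Rims2 at -4.61 ± 0.22, Unc13c at -3.61 ± 0.23, Amph at -3.27 ± 0.16 and Pclo at -2.49 ± 0.16 (adjusted p = 3.16e-08, 2.44e-08, 1.47e-07, 3.16e-08 and 1.74e-07). All 5 had the same sign and passed after quantile normalization.

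No gene of the set passed the test for time after death. This held for all 37 at 3 h and at 18 h in brain (limma), where 0.0765% and 0.0306% of all genes did, so few genes of any kind were called. At an unadjusted p under 0.05 there were 3 at 3 h (5.23% of all genes) and 1 at 18 h (3.78% of all genes). The median change was 0.02 at 3 h and 0.04 at 18 h, against 0.015 over all genes at both times. The 95% intervals of the 37 genes lay between -0.72 and 0.80 at 3 h and between -0.52 and 0.75 at 18 h. These intervals are not adjusted for the number of genes tested, while calls are, so changes of that size or larger could go uncalled.

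The 3 genes at 3 h were the vesicle SNARE Vamp1, the calcium sensor Syt2 and the RIM protein Rims3. Vamp1 had 6.17, 6.69 and 6.23 in FFPE brain and 7.30, 7.62 and 7.27 in FF brain at 0, 3 and 18 h (0.42 ± 0.14 at 3 h, adjusted p = 0.737). Syt2 had 5.56, 6.0 and 5.21 in FFPE brain and 6.12, 6.58 and 6.22 in FF brain (0.45 ± 0.16, adjusted p = 0.776). Rims3 had 6.23, 6.76 and 6.24 in FFPE brain and 7.30, 7.47 and 7.30 in FF brain (0.35 ± 0.14, adjusted p = 0.906). In all 3 the 3 h array was the highest of each series, without passing the adjusted test. Slc17a7 at 18 h was 0.295 ± 0.13 above 0 h (adjusted p = 0.995).

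Compared array by array, no gene differed 1.5-fold between 3 h and 0 h in FFPE or in FF brain, where 2.29% and 2.55% of all genes did. At 18 h, 1 gene did so in FFPE brain (2.09% of all genes) and none in FF brain (1.74% of all genes). That gene was Slc32a1, with 6.85, 7.13 and 7.46 at 0, 3 and 18 h in FFPE brain and 8.55, 8.52 and 8.45 in FF brain, so the levels in FFPE and FF brain lay closer together at 18 h than at 0 h. The sign of the change was the same in FFPE and FF brain for 21 of the 37 genes at 3 h (51.8% of all genes) and for 16 at 18 h (52.3% of all genes). Each comparison with 0 h uses the same 0 h array. These array pairs have no replicate check.

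**Figure D4:**
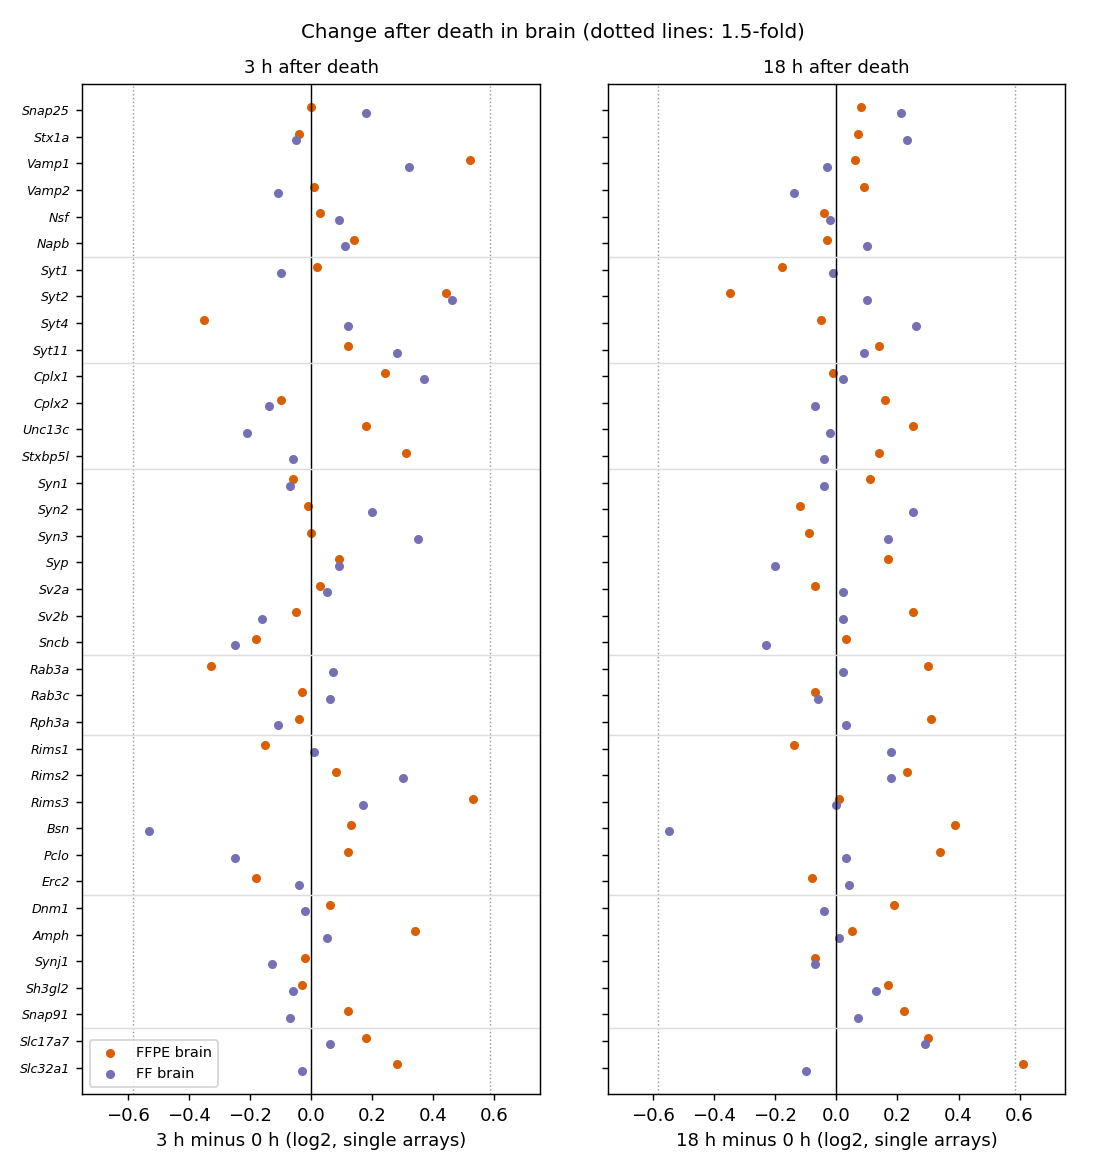
Change from 0 h in FFPE brain and in FF brain (log2, 1 array minus 1 array) at 3 h (left) and 18 h (right) for the main probe set of 37 genes, with dotted lines at 1.5-fold. All points at 3 h lie within the lines, and Slc32a1 in FFPE brain at 18 h (0.61) is the single point beyond them.

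Some markers of brain regions and of other cells differed with time in the same arrays. Of 8 tested thalamus markers, 4 were higher at 3 h, namely Prkcd (1.83 ± 0.20), Plekhg1 (1.465 ± 0.16), Rora (1.06 ± 0.14) and Slc17a6 (1.035 ± 0.16), with adjusted p = 0.00293, 0.00278, 0.0128 and 0.0288. The summed thalamus level was 8.77, 9.42 and 8.89 in FFPE brain and 9.13, 10.29 and 9.31 in FF brain at 0, 3 and 18 h. None of 10 oligodendrocyte markers passed at 3 h, with a median of 0.54, and their summed level was 11.57, 12.27 and 12.02 in FFPE brain and 12.485, 12.87 and 12.80 in FF brain. Of 7 tested choroid plexus and ependyma markers, Ttr, the transthyretin of choroid plexus, was higher at 3 h and at 18 h (5.395 ± 0.47 and 4.895 ± 0.47, adjusted p = 0.000341 and 0.00102). The summed level of that list was 8.27, 12.59 and 12.12 in FFPE brain and 9.11, 12.80 and 12.27 in FF brain. Of 11 tested hepatocyte markers, Apoa1 and Mup3 were lower at 3 h (-1.755 ± 0.21 and -3.185 ± 0.17, adjusted p = 0.00399 and 2.92e-06) and at 18 h (-1.74 ± 0.21 and -3.655 ± 0.17, adjusted p = 0.00729 and 5.57e-07). Of 7 tested striatum markers, 1 was lower at 3 h, Tac1 (-1.135 ± 0.17, adjusted p = 0.0288), and the list ranged from -1.135 to -0.25. The summed striatum level was 11.71, 11.26 and 11.56 in FFPE brain and 12.30, 11.83 and 11.965 in FF brain at 0, 3 and 18 h. Of 9 tested markers of excitatory neurons of cortex and hippocampus, Prox1 was higher at 3 h (0.985 ± 0.14, adjusted p = 0.0238). The part of these markers in the values of the vesicle genes was not tested.

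Other genes of the vesicle cycle and active zone, 56 on a list of relatives of the 39, were counted in the same way. Of these, 45 had a probe set and 42 were tested. In brain over liver, 35 were higher and 1 lower in FFPE, where 29.0% and 34.5% of all genes were. In FF, 34 were higher and 2 lower, where 37.5% and 36.5% of all genes were. The largest in FFPE were Synpr, the synaptophysin relative synaptoporin (4.99 ± 0.12), the dynamin Dnm3 (4.20 ± 0.12), the synaptotagmin Syt7 (4.03 ± 0.12) and the presynaptic adhesion protein Nrxn3 (3.94 ± 0.12). In FFPE over FF brain, 12 were higher and 27 lower, where 28.4% and 53.4% of all genes were, with a median of -0.67 against -0.42 over all genes. The largest were Napa, an NSF attachment protein (-3.05 ± 0.11), Syt16 (-2.93 ± 0.14), the active zone protein Ppfia2 (-2.80 ± 0.11) and Slc17a6, the vesicular glutamate transporter of subcortical neurons (-2.77 ± 0.13), each with adjusted p of 9.91e-10 or less. At 3 h 1 of the 42 was called, Slc17a6, which is also one of the thalamus markers above, and at 18 h none was (limma). At an unadjusted p under 0.05 there were 6 of the 42 at 3 h and 4 at 18 h, where 5.23% and 3.78% of all genes were.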

How the data were processed

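RNA of 12 mouse samples, brain or liver, FFPE or FF, at 0, 3 or 18 h after death, was measured on 1 array each. The submitters' processing notes name RMA and Affymetrix Expression Console, and the deposited table holds a log2 intensity for every probe set on every array. Versions, the annotation used by the submitters and whether all arrays shared 1 RMA run are not given in the sources used here. RMA corrects background, matches the distributions of arrays and summarises the probes of a set. Values ran from 2.66 to 13.44. Arrays have no sequencing depth, and their number limits the precision.

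Of 45141 probe sets, 104 were controls, the annotation gave 28898 a single gene symbol, gave 551 more than 1 symbol and left 15588 unnamed. Where a gene had several probe sets, the brightest on average across all 12 arrays was its main one. A gene was tested if 3 or more arrays placed it no lower than their median, which kept 13073, and the same filter left 29688 probe sets when each was tested alone. Two-sided tests were made with limma 3.58.1 (R 4.3.3), and p-values were adjusted by Benjamini and Hochberg's method across every gene or probe set tested, with a threshold of 0.05. The model had 8 coefficients, a mean for each tissue and preservation and for each tissue a change at either later time, and 4 residual degrees of freedom. The spread of a gene was estimated once, from both tissues together. The change with time in brain is what FFPE and FF arrays share, from 2 arrays a time. The scripts were tested on simulated data.

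The 39 genes and the comparison lists were chosen with earlier results of these data known. All 39 may be named, with values of each array for at most 3 genes per role and comparison, those past the threshold with the largest difference. Of the other vesicle genes, up to 4 per comparison were named. Genes whose sign or call turned under another setting are also named, and the FF brain and FFPE brain values at 3 h of genes with a low unadjusted p were given as values. Alternatives changed the filter, the probe set of a gene, the normalization, the spread, the time terms, the arrays in the fit and the fold for single pairs.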

Additional observations from a re-analysis of the deposited data

Results flagged for a closer look

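For 31 of the 37 genes the preservation difference (FFPE minus FF) in brain differed from that in liver, by the interaction term of the limma model with adjusted p under 0.05. Each value below is the brain difference minus the liver difference of the main probe set on the log2 scale. In the active zone scaffold, Bsn was at 4.67, Rims2 at -4.61, Pclo at -2.49, Rims1 at -2.03 and Rims3 at -1.06. Among SNARE regulators, Unc13c was at -3.61, Stxbp5l at -1.91, Cplx2 at -0.87 and Cplx1 at -0.52. Among endocytosis genes, Amph was at -3.27, Dnm1 at -1.06, Snap91 at -0.77, Sh3gl2 at -0.65 and Synj1 at 0.48. Of the SNARE proteins and their disassembly factors, Vamp1 was at -1.18, Stx1a at -1.11, Nsf at -0.40, Napb at 0.83 and Snap25 at 0.39. The synaptotagmins Syt2, Syt1 and Syt4 were at -1.09, -1.09 and -1.01. Of the vesicle cluster and membrane proteins, Syp was at 1.28, Sv2b at 1.00, Syn3 at 0.90, Syn1 at 0.83 and Sncb at -0.87. In the Rab3 group, Rab3c was at -2.02 and Rph3a at 1.07. The transporters Slc32a1 and Slc17a7 were at -1.94 and -0.61.

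For Stxbp5l and Cplx2 the main probe set was higher in FFPE tissue in both organs, and more so in liver. For Rims2 and Unc13c it was lower in FFPE brain and higher in FFPE liver. Another probe set each of Cplx2, Rims2 and Stxbp5l was lower in FFPE liver, at -2.59, -0.62 and -0.44, while a further one of Stxbp5l was at 0.77. The interactions of the other tested Rims2 probe sets were -2.05 and -1.71. Those of Pclo, Rims1, Syt4 and Syp also kept the sign of the main probe set. Elsewhere another probe set was called with the opposite sign. Examples are Syt1 (3.61 and 2.90), Rab3c (3.64), Dnm1 (2.67), Sh3gl2 (1.69), Slc32a1 (1.58), Cplx2 (1.04), Vamp1 (0.68), Synj1 (-1.60), Syn3 (-1.70) and Sv2b (-1.22). The 2 preservations were labelled with different kits, whose part in these values cannot be told apart from that of fixation. The smallest calls depended on single arrays. The interactions of Snap25 (0.34 to 0.43) and Nsf (-0.41 to -0.33) each missed the threshold without any of 10 of the 12 arrays, all but those of liver at 18 h for Snap25 and at 0 h for Nsf. That of Cplx1 (-0.54 to -0.31) missed it without any brain array or either 0 h liver array, and that of Synj1 (0.43 to 0.50) without either 3 h brain array, either 0 h or 3 h liver array, or the FF brain array at 18 h. Without either 18 h liver array, Syt11 (0.84) and Erc2 (-0.47) passed, and without either 0 h liver array Vamp2 (0.65) did.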

How the results depend on the processing

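With no filter or a robust spread, every count and gene compared kept its direction and its side of the threshold, as did those of FFPE over FF brain and of time in a fit of the 6 brain arrays alone, which gives no other comparison, and with a spread that follows intensity or no time terms only the interactions of Nsf, Snap25 and Cplx1 were lost. Leaving out each array gave 8 to 9 genes higher and 20 to 21 lower in FFPE over FF brain. Brain over liver gave 35 to 37 higher in FFPE and 35 in FF. The interaction gave 27 to 32, FFPE over FF liver 21 to 27, and time 0.

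The choice of probe set changed most. With the mean of a gene's probe sets, no gene was lower in FF brain than in FF liver, and Syn3 was there at 0.90. FFPE over FF brain then turned for Vamp2 (2.89), Syt1 (2.17), Dnm1 (1.43), Rab3c (1.02), Slc32a1 (0.77), Sh3gl2 (0.42), Syt2 (0.32), Vamp1 (0.215), Cplx1 (-0.61), Syt11 (-0.47), Cplx2 (-0.0933), Syn3 (-0.0944) and Syp (-0.0067). The interaction turned for Syt1 (1.81), Dnm1 (0.805), Sh3gl2 (0.55), Rab3c (0.40), Cplx2 (0.30), Synj1 (-0.54), Syn3 (-0.28), Syt11 (-0.13) and Sv2b (-0.11), and Vamp1 at 18 h was -0.055. With the probe set highest in brain, FFPE over FF brain turned for Sv2b (-0.96) and Napb (-0.74), and the interaction likewise (-1.22 and -0.99). Bsn kept its sign there but was at 0.28, with an interaction of 1.27, and passed in FF brain over FF liver (3.27), and Rims1 was at -0.52, with an interaction of -0.73. With each probe set on its own, 19 genes had one called higher in FFPE brain, and 4 had one lower in FF brain than in FF liver. A gene with several probe sets had more chances to be counted, and no matching share of all genes is given. By probe set, 27 of 84 were higher in FFPE brain, where 34.5% of all probe sets were.

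Quantile normalization gave 15 genes higher in FFPE brain. It turned Syn2 (0.52), Vamp2 (0.31), Synj1 (0.31), Syt4 (0.11) and Slc17a7 (0.0867) there, Bsn in FF brain over liver (-0.12), and the interactions of Erc2 (0.58), Syn2 (0.52), Sv2a (0.48), Rab3a (0.31), Sh3gl2 (0.14) and Nsf (0.0369). At 18 h Cplx1 was -0.0394 and Rims3 -0.0133. In single FFPE brain arrays 3 genes (Vamp1, Rims3 and Syt2) then passed 1.5-fold at 3 h, and at 2-fold none did at 18 h. Across left-out arrays, signs turned for Bsn in FF brain over liver (-0.24 to 0.23), the interaction of Erc2 (-0.47 to 0.0433), Slc32a1 at 3 h (-0.13 to 0.38), and at 18 h Slc32a1 (-0.0225 to 0.53), Cplx1 (-0.035 to 0.045), Vamp1 (-0.0575 to 0.0875), Rims3 (-0.0875 to 0.0975) and Syt2 (-0.345 to 0.095). The cause of these turns was not tested. With 1 array per condition, changes of about 0.8 or more at 3 h or 18 h could also go uncalled after adjustment. No paired analysis was possible because every condition had 1 array, so replicate numbers pair nothing; arrays of a tissue were matched by time through the time terms of the model.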
